A study of Mus musculus with 18 samples.

Results

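Il2, Csf2, Il3 and Lif, which encode cytokines made by activated T cells, were measured together with the interleukin-2 receptor genes Il2ra and Il2rb and the related receptor genes Il7r and Il15ra. The set of 9 symbols also held Il2rg, and each probe set of the array annotated to 1 of these symbols alone was read. Such a probe set was found for 8 of the 9 symbols, 13 probe sets in all, and these members are 8 of 18193 genes read from the arrays. Il2rg is not analysed here. The cells were CD4 T cells purified from spleen with magnetic beads, the mice being of the C57BL/6 background and 9 to 15 weeks old, and their RNA was hybridised to 18 Affymetrix arrays in 6 groups of 3. The mice were wild type (WT), carried the Gli2A transgene (Gli2A Tg) or carried the Gli2R transgene (Gli2R Tg). Gli2 is a transcription factor of the Hedgehog pathway, and Gli2A and Gli2R stand for an activating and a repressing form. From each genotype, RNA came from freshly purified resting cells or from cells given antibodies to CD3 and CD28 for 6 h. Cells cultured without antibodies were not analysed here, so time in culture and stimulation cannot be told apart. The sources used here do not name the promoter that drives the transgenes. They also do not say that replicates are separate animals, so the p-values reflect the spread between these arrays alone, which may be technical in part.

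Interleukin-2 is the growth factor that T cells secrete after antigen recognition. Its high-affinity receptor joins the alpha chain CD25, encoded by Il2ra, to the beta chain encoded by Il2rb and the common gamma chain, and it signals through JAK1, JAK3 and STAT5. Interleukin-7 keeps resting T cells alive through Il7r and the same gamma chain, and interleukin-15 is held by the alpha chain Il15ra and signals through the beta and gamma chains. Csf2 (GM-CSF) and Il3 act mainly on myeloid cells through a shared beta chain, and Lif acts through the gp130 receptor family. Transcription of these cytokines in T cells is known to depend on NFAT, which calcium signals activate, and on AP-1.

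The sequence just before the start of each cytokine gene is shown because these 4 genes are the secreted products whose levels are compared, and NFAT and AP-1 act on such sequences. Each run is the 250 bases before the annotated start in RefSeq for GRCm38.p6, read 5′ to 3′ on the strand of the gene. Capitals mark the NFAT core GGAAA on either strand (TTTCC on the other), the AP-1 letters TGANTCA and the TATA box TATAAA.
Il2, chr3:37125955-37126204, minus strand: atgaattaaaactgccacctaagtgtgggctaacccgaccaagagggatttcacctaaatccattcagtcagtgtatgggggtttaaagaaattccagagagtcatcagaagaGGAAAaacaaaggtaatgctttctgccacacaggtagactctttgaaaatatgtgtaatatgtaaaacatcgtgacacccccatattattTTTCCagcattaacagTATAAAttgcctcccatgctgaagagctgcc
Csf2, chr11:54249900-54250149, minus strand: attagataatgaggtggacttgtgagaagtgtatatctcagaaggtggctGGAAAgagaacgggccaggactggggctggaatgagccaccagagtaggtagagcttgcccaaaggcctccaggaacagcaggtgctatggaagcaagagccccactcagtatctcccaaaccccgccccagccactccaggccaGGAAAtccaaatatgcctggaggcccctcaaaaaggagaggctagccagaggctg
Il3, chr11:54267280-54267529, minus strand: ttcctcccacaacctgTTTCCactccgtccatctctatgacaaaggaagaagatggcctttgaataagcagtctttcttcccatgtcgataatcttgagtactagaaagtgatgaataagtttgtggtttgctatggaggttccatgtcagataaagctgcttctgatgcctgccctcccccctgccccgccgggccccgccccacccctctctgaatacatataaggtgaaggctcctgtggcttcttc
Lif, chr11:4257318-4257567, plus strand: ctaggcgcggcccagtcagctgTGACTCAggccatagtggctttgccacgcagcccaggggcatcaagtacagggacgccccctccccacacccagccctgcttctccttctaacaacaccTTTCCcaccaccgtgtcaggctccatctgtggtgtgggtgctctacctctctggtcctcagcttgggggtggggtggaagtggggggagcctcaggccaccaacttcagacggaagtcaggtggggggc
The NFAT core stood 137 and 47 bases before the start in Il2, 200 and 55 in Csf2, 234 in Il3 and 129 in Lif, counting from the first base of the match. It is a common string, held by 55.6% of 32851 promoter windows of the same length. Il2 alone among these 4 held TATAAA, 31 bases before the start (12.4% of windows), and Lif alone held TGANTCA, 228 bases before it (6.75% of windows). Csf2 and Il3 held the GC box GGGCGG at 77 and 53 bases before the start (32.7% of windows). The GLI letters GACCACCCA, present in 0.225% of windows, had no match on either strand in the 9 windows searched, which belong to Il2rg and to the measured members except Il2rb, and neither did the FOXO letters GTAAACA (3.17%) or the NF-kB motif (0.98%). A match is a string of letters in this window and no measurement of binding. Only exact matches to the letters searched were counted, so sites with other letters would be missed. The absence of a match, as for NF-kB in Il2, therefore does not show that a promoter lacks such a site.

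Members of this set are also neighbours on the chromosomes. In the order of protein-coding genes in RefSeq, Csf2 lay next to Il3 on chromosome 11, Il2ra lay next to Il15ra on chromosome 2, Il2 lay next to Il21 on chromosome 3, and Lif lay next to Osm on chromosome 11.

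All levels are log2 of the intensity plus 16, then quantile normalised, and read from the probe set with the highest mean of each gene. A difference of 1 is a doubling of the intensity with the offset included. The offset of 16 understates fold changes of dim genes. The median gene level was 7.06, the 25th percentile 5.37 and the 95th percentile 12.26. A probe set's brightness depends on its sequence, so these percentiles are only a rough guide to how dim or bright a probe set is, and the members are not ranked by level. Calls were made at an adjusted p under 0.05 in limma with Benjamini-Hochberg adjustment over 18193 genes, and every adjusted p below is from this fit. Where values of 1 group are said to lie above or below those of another, this describes few arrays, and no share over all genes is given for it. Markers of the labelled cell type were present: Cd3d, of the T cell receptor complex, had a level of 14.80 ± 0.03 (SD, n = 3) and Cd4 of 11.10 ± 0.04 in resting WT cells. The resting preparations also held RNA of myeloid markers, whose summed intensity over 11 genes was 61300 to 93400 in resting WT, 98800 to 106000 in resting Gli2A Tg and 43500 to 57400 in resting Gli2R Tg arrays, against 1090 to 5360 in stimulated arrays. Csf1r, the receptor of a macrophage growth factor, was at 14.03 in resting WT and 8.66 in stimulated WT cells. In such bulk samples, fewer cells of a type and less RNA per cell cannot be told apart. Arrays had median intensities of 55.5 to 76.3. The second principal component set resting Gli2A Tg replicate 3 apart, and the third set stimulated Gli2A Tg replicate 2 apart, which also had the highest 3′ to 5′ actin ratio, 3 against at most 1.82 elsewhere. Sex-linked genes had the male pattern on 5 of 18 arrays: 3 were WT (2 resting, 1 stimulated) and 2 were stimulated Gli2R Tg. Those 3 groups held both patterns, so their arrays did not all come from the same animal.

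**Figure D1:**
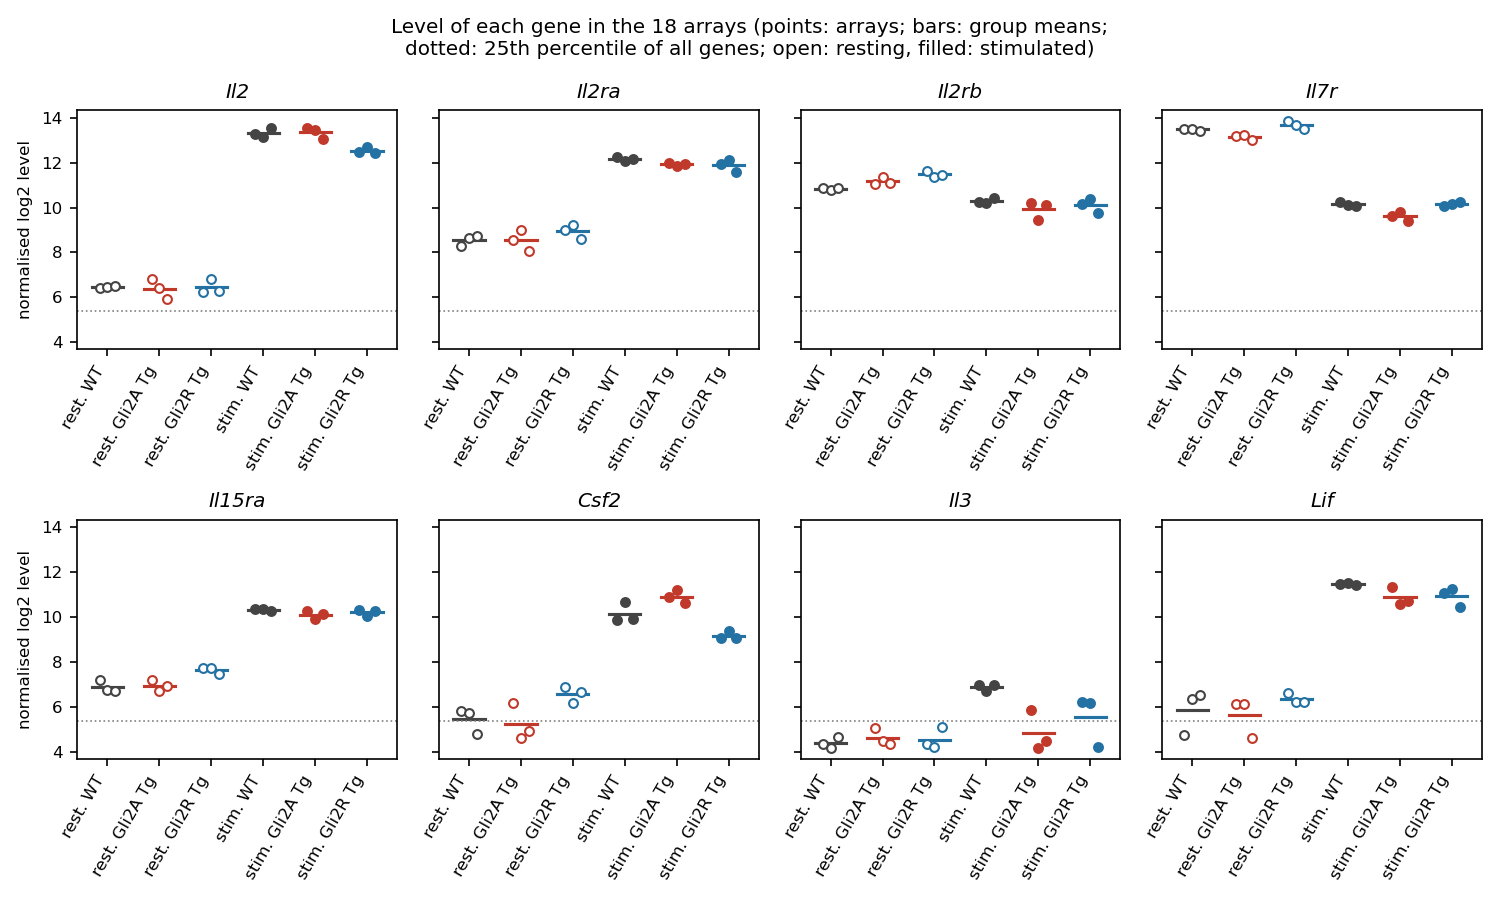
Log2 level (intensity plus 16, quantile normalised) of the 8 measured members on each of the 18 arrays, by group. Bars mark group means, open points resting arrays, filled points stimulated arrays and a dotted line the 25th percentile of genes. Il2, Il2ra, Il15ra, Csf2 and Lif are higher on all 9 stimulated arrays than on any resting array, Il7r and Il2rb are lower on all of them, and Il3 lies above all resting arrays on the 3 WT, on 1 Gli2A Tg and on 2 Gli2R Tg stimulated arrays.

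Stimulation raised 6 members and lowered 2 in WT cells. Il2, Il2ra, Il15ra, Csf2, Il3 and Lif rose and Il7r and Il2rb fell, so 8 of 8 members were called, where 19.7% of all genes were called higher and 22% lower. The median over the 8 members was 3.53 (log2), against 0.00 over all genes. In Gli2A Tg cells 7 of 8 were called, 5 higher and 2 lower, with 20.2% and 22.8% of all genes called in those directions, and the median was 3.28. In Gli2R Tg cells the count was again 5 higher and 2 lower, with 19.8% and 22.5% of all genes, and the median was 2.59. Il3 was the member not called in either transgenic genotype. In all 3 genotypes 10 of 11 myeloid markers fell with stimulation, and the part of the myeloid RNA in these differences was not tested.

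Il2 encodes the growth factor itself and had the largest rise of the 8. Its resting levels were 6.41, 6.44 and 6.51 in WT, 6.81, 6.43 and 5.92 in Gli2A Tg and 6.24, 6.82 and 6.30 in Gli2R Tg arrays. After stimulation they were 13.28, 13.14 and 13.54 in WT, 13.54, 13.45 and 13.06 in Gli2A Tg and 12.48, 12.70 and 12.41 in Gli2R Tg. Resting values of the 3 genotypes overlapped, while every stimulated Gli2R Tg value lay below every stimulated value of the other genotypes. On the deposited scale the mean went from 77.5 to 11200 in WT cells and from 77.5 to 6290 in Gli2R Tg cells. The rise was 6.87 ± 0.22 (SE; 117-fold, adjusted p = 5.01e-11) in WT, 6.96 (125-fold, adjusted p = 5.41e-11) in Gli2A Tg and 6.08 (67.5-fold, adjusted p = 1.45e-10) in Gli2R Tg cells. The stimulated Gli2R Tg cells differed from WT by -0.79 ± 0.22 (95% interval -1.26 to -0.32), which did not pass the adjustment (adjusted p = 0.253).

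Csf2 encodes GM-CSF, which drives the growth and activation of granulocytes and macrophages. It was dim in resting cells, at 5.80, 5.72 and 4.77 in WT and 6.15, 4.62 and 4.90 in Gli2A Tg arrays, and at 6.89, 6.16 and 6.64 in Gli2R Tg arrays, all 3 above the WT values. The stimulated values ran in the other order, at 9.86, 10.65 and 9.91 in WT, 10.88, 11.18 and 10.62 in Gli2A Tg and 9.06, 9.37 and 9.07 in Gli2R Tg. The Gli2R Tg values lay below those of both other groups, and Gli2A Tg and WT values overlapped. Stimulation raised Csf2 by 4.71 ± 0.37 in WT (26.2-fold, adjusted p = 9.93e-08), by 5.67 in Gli2A Tg (50.9-fold, adjusted p = 1.55e-08) and by 2.60 in Gli2R Tg cells (6.07-fold, adjusted p = 3.71e-05).

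The rise of Csf2 differed between the transgenic genotypes. The difference in stimulation effect, Gli2A Tg minus Gli2R Tg, was 3.07 ± 0.53 (95% interval 1.94 to 4.19, adjusted p = 0.0397), the 1 call among 8 members in a comparison where 0.11% of all genes were called. It combined a gap of 1.73 ± 0.37 in stimulated cells (interval 0.93 to 2.52, adjusted p = 0.0699) with one of -1.34 ± 0.37 in resting cells (interval -2.14 to -0.54, adjusted p = 0.0731), neither called alone. Against WT, the effect differed by -2.11 ± 0.53 in Gli2R Tg (adjusted p = 0.284) and by 0.96 in Gli2A Tg cells (adjusted p = 0.569). Without single arrays, the Gli2A Tg minus Gli2R Tg value ran from 2.77 to 3.53 with adjusted p from 0.0057 to 0.121, and it passed in 3 of 18 such fits. Without both arrays that stood apart it was 2.76 (adjusted p = 0.184).

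Il3 encodes interleukin-3, a growth factor of early blood cells, mast cells and basophils. Its resting levels were near the low end of the scale in every genotype: 4.32, 4.17 and 4.64 in WT, 5.03, 4.47 and 4.34 in Gli2A Tg and 4.32, 4.19 and 5.09 in Gli2R Tg arrays, all below the 25th percentile of genes. Stimulated WT cells had 6.98, 6.70 and 6.98, close to the median gene. Stimulated Gli2A Tg cells had 5.84, 4.17 and 4.45, and stimulated Gli2R Tg cells had 6.22, 6.17 and 4.21, so that in each transgenic group at least 1 array stayed within the resting range. All 3 stimulated WT values lay above all 6 stimulated transgenic values.

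Stimulation raised Il3 by 2.51 ± 0.49 in WT cells (5.68-fold, 95% interval 1.45 to 3.56, adjusted p = 0.00067). The difference was 0.21 in Gli2A Tg (interval -0.85 to 1.26, adjusted p = 0.779) and 1.00 in Gli2R Tg cells (interval -0.05 to 2.05, adjusted p = 0.121), neither called. In Gli2R Tg cells this rested on replicate 3 of the stimulated group: without it the value was 1.66 (adjusted p = 0.00448). The test of the difference in effect against WT gave -2.30 ± 0.70 for Gli2A Tg (interval -3.79 to -0.81, adjusted p = 0.273) and -1.50 ± 0.70 for Gli2R Tg (adjusted p = 0.575), so a difference between genotypes did not pass. In stimulated cells alone, Gli2A Tg minus WT was -2.07 ± 0.49 (adjusted p = 0.101). Csf2, the gene next to Il3, had its highest stimulated mean in Gli2A Tg cells, where the Il3 mean was lowest.

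Lif encodes leukaemia inhibitory factor, a cytokine of the interleukin-6 family. Resting levels spread widely, at 4.75, 6.32 and 6.52 in WT, 6.11, 6.13 and 4.61 in Gli2A Tg and 6.61, 6.19 and 6.22 in Gli2R Tg arrays, and overlapped. Stimulated levels were 11.48, 11.49 and 11.44 in WT, 11.34, 10.59 and 10.70 in Gli2A Tg and 11.06, 11.24 and 10.45 in Gli2R Tg, with every WT value above every transgenic one. The rise was 5.60 ± 0.45 in WT (48.7-fold, adjusted p = 1.05e-07), 5.26 in Gli2A Tg (38.3-fold) and 4.58 in Gli2R Tg cells (23.9-fold), called in each. A second, dimmer probe set gave 2.65, 2.41 and 2.61 in the same order, so the size of the Lif rise depends on the probe set. Its stimulated values overlapped between genotypes, at 7.39 to 7.78 in WT, 7.17 to 7.60 in Gli2A Tg and 7.38 to 7.72 in Gli2R Tg.

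Il2ra encodes CD25, the chain that gives the interleukin-2 receptor its high affinity. Resting arrays had 8.28, 8.64 and 8.72 in WT, 8.57, 8.99 and 8.06 in Gli2A Tg and 8.99, 9.23 and 8.60 in Gli2R Tg. Stimulated arrays had 12.26, 12.07 and 12.18 in WT, 11.98, 11.87 and 11.96 in Gli2A Tg and 11.95, 12.14 and 11.60 in Gli2R Tg. The resting groups overlapped, and the stimulated WT values lay above the Gli2A Tg values and overlapped the Gli2R Tg values. The second Il2ra probe set gave another order in stimulated cells. Its WT values (11.01 to 11.20) overlapped those of Gli2A Tg (10.88 to 11.11) and lay above those of Gli2R Tg (10.74 to 10.78). Il2ra rose by 3.62 ± 0.23 in WT (12.3-fold, adjusted p = 1.05e-08), with 3.40 (10.5-fold) in Gli2A Tg and 2.96 (7.77-fold) for Gli2R Tg, both called, and its second probe set by 3.54, 3.49 and 2.91. Regulatory T cells carry CD25 at rest, and 8 of their markers summed to 12000 to 15300 in resting WT and 18000 to 21400 in stimulated WT arrays. The sum follows the brightest markers: of the 8, 2 were called higher and 1 lower in WT cells, with a median of -0.46. The shares over all genes were 19.7% and 22%. Tnfrsf18 went from 11.61 to 13.29, Ikzf2 from 11.55 to 11.79 and Izumo1r from 12.12 to 10.16. The part of regulatory T cells in the Il2ra level was not tested.

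Il15ra encodes the alpha chain that binds interleukin-15. It was near the median gene in resting WT cells at 7.21, 6.76 and 6.68, and in resting Gli2A Tg cells at 7.21, 6.70 and 6.90, while resting Gli2R Tg cells had 7.73, 7.71 and 7.47, above all 6. Stimulated values were 10.34, 10.33 and 10.28 in WT, 10.26, 9.91 and 10.12 in Gli2A Tg and 10.31, 10.06 and 10.25 in Gli2R Tg, overlapping between neighbours in the order. Stimulation raised it by 3.43 ± 0.17 in WT (10.8-fold, adjusted p = 2.28e-09), with 3.16 (8.93-fold) in Gli2A Tg and 2.57 (5.94-fold) for Gli2R Tg, both called. A second probe set gave 1.71, 1.81 and 1.68. Its resting Gli2R Tg values, 6.55 to 7.06, overlapped those of WT (6.59 to 7.02) and Gli2A Tg (6.25 to 6.68). The smaller rise of the brighter probe set in Gli2R Tg than in WT cells, -0.86 ± 0.24, was not called (adjusted p = 0.296).

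Il7r encodes the interleukin-7 receptor, a marker of resting and memory T cells. Its resting values were 13.49, 13.52 and 13.43 in WT, 13.18, 13.25 and 13.02 in Gli2A Tg and 13.85, 13.68 and 13.51 in Gli2R Tg, above the 95th percentile of genes on every array. Stimulated values were 10.25, 10.11 and 10.09 in WT, 9.63, 9.78 and 9.41 in Gli2A Tg and 10.08, 10.17 and 10.24 in Gli2R Tg. In both conditions the Gli2A Tg values of this probe set lay below all values of the other genotypes. On the second, dimmer probe set this held at rest alone. Its stimulated values overlapped, at 6.72 to 7.28 in Gli2A Tg, 7.26 to 7.46 in WT and 7.25 to 7.56 in Gli2R Tg. Il7r fell by 3.33 ± 0.13 on the log2 scale in WT (10.1-fold lower, adjusted p = 3.06e-10), and the differences were -3.55 for Gli2A Tg and -3.52 for Gli2R Tg, both called. The difference in this fall between Gli2A Tg and WT was -0.22 (interval -0.61 to 0.18, adjusted p = 0.742). Of 10 T cell markers, 6 fell with stimulation in WT cells, where 22% of all genes did, with Cd3d at -1.73 ± 0.11. The summed intensity of the 10 went from 93600 to 103000 down to 46100 to 53700.

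Il2rb encodes the beta chain that interleukin-2 and interleukin-15 share. Its resting values were 10.86, 10.78 and 10.85 in WT, 11.07, 11.35 and 11.08 in Gli2A Tg and 11.63, 11.35 and 11.45 in Gli2R Tg. Stimulated values were 10.25, 10.22 and 10.43 in WT, 10.22, 9.45 and 10.11 in Gli2A Tg and 10.15, 10.38 and 9.75 in Gli2R Tg. The stimulated groups overlapped, and all lay below the resting ones. Il2rb fell by 0.53 ± 0.20 in WT (1.44-fold lower, adjusted p = 0.043), and the differences were -1.24 in Gli2A Tg (adjusted p = 0.000101) and -1.38 in Gli2R Tg cells (adjusted p = 3.55e-05). The WT call had the highest adjusted p of the stimulation calls. With median centring it was -0.41 (adjusted p = 0.182), the second probe set gave -0.70 ± 0.30 (adjusted p = 0.0743), and 9 of 18 fits without 1 array kept it, with adjusted p from 0.014 to 0.112. Cytotoxic and natural killer cells carry much Il2rb, and 9 of their markers summed to 6160 to 6500 in resting WT and 3340 to 4910 in stimulated WT arrays. Of the 9, 5 were called lower and 2 higher in WT cells, where 22% and 19.7% of all genes were. Nkg7 went from 11.57 to 10.06 and Klrd1 from 10.71 to 9.20, whereas Eomes went from 8.43 to 10.23. The part of these cells in the fall of Il2rb was not tested.

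**Figure D2:**
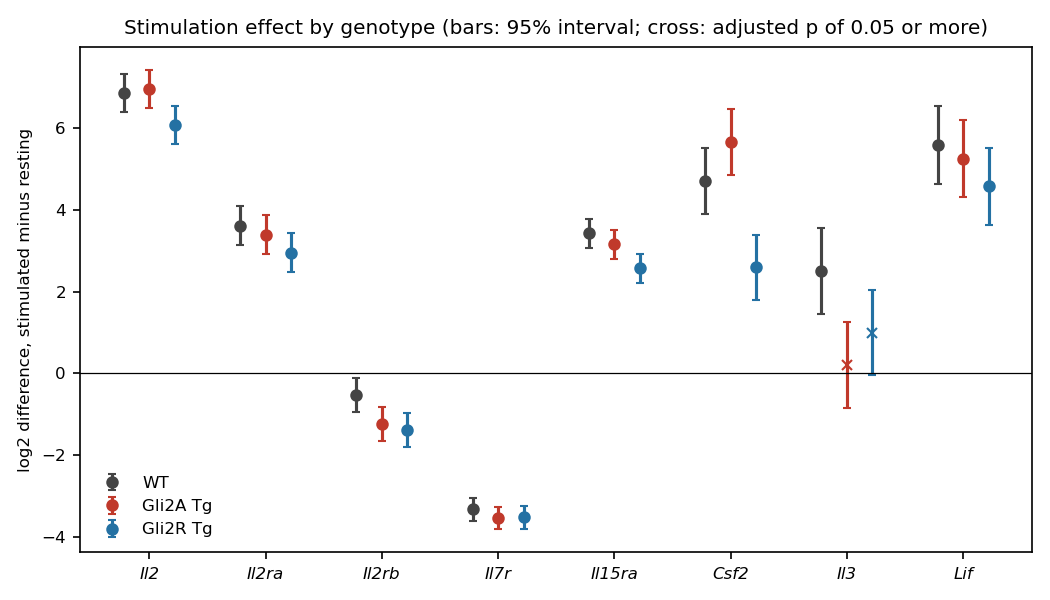
Difference between stimulated and resting cells (log2) of each member by genotype, as points with 95% intervals from limma on 3 arrays per group. The intervals of Il3 in Gli2A Tg and Gli2R Tg cells include 0, the other 22 intervals do not, and the Csf2 interval in Gli2R Tg cells lies below that in Gli2A Tg cells.

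Between genotypes at rest, 2 receptor genes were called. In Gli2A Tg against Gli2R Tg cells, 2 of 8 members were called lower, where 2.4% of all genes were called in either direction. Il7r differed by -0.53 ± 0.13 (interval -0.81 to -0.26, adjusted p = 0.0466) and Il15ra by -0.70 ± 0.17 (interval -1.06 to -0.34, adjusted p = 0.0421). Csf2 differed by -1.34 and missed the threshold; it passed in 3 of 31 alternatives, and Il2 differed by -0.06 (interval -0.53 to 0.40, adjusted p = 0.931). Both calls were near the threshold. Leaving out 1 array kept Il7r in 3 of 18 fits and Il15ra in 5 of 18, with adjusted p up to 0.165 and 0.139, and without both arrays that stood apart they were -0.47 (adjusted p = 0.134) and -0.68 (adjusted p = 0.129). The probe sets disagreed in part: tested among all probe sets, the second Il7r probe set differed by -1.23 ± 0.23 (adjusted p = 0.0131) and the second Il15ra probe set by -0.33 ± 0.18 (adjusted p = 0.425). Myeloid markers were 98800 to 106000 in resting Gli2A Tg and 43500 to 57400 in resting Gli2R Tg arrays, and erythroid and platelet markers 21700 to 47200 and 3060 to 6270. Their part in these differences was not tested.

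Against WT, no member was called in resting cells. In Gli2A Tg against WT 0 of 8 were called (1 at an unadjusted p under 0.05), where 0.55% of all genes were called, and the lowest p was that of Il7r, -0.33 ± 0.13 (interval -0.61 to -0.05, adjusted p = 0.385). In Gli2R Tg against WT 0 of 8 were called (3 at an unadjusted p under 0.05), and 0% of all genes (1869 at an unadjusted p under 0.05). The 3 were Il15ra at 0.76 ± 0.17 (adjusted p = 0.131), Il2rb at 0.65 ± 0.20 (adjusted p = 0.259) and Csf2 at 1.13 ± 0.37 (adjusted p = 0.298). On the probe set read for each of these 3 genes, all Gli2R Tg values lay above all WT values. The 3 were picked by p in the same comparison, so this separation adds no support. The second Il15ra probe set, tested among all probe sets in limma, differed by 0.09 ± 0.18 (adjusted p = 0.951), and its values overlapped. Il2 differed by 0.00 (interval -0.47 to 0.47).

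In stimulated cells limma called 0 of 8 members in each comparison of genotypes. In Gli2A Tg against WT (0.137% of all genes called), Il3 at -2.07 and Il7r at -0.55 ± 0.13 (interval -0.82 to -0.27) were the 2 with an unadjusted p under 0.05, each with adjusted p = 0.101. Il2 differed by 0.03 (interval -0.43 to 0.50). In Gli2R Tg against WT (0.044% of all genes called), 3 members had an unadjusted p under 0.05: Il2 at -0.79, Csf2 at -0.98 ± 0.37 (adjusted p = 0.427) and Il3 at -1.35 ± 0.49 (adjusted p = 0.403). In Gli2A Tg against Gli2R Tg (0.231% of all genes called) there were also 3: Csf2 at 1.73, Il2 at 0.82 ± 0.22 (adjusted p = 0.162) and Il7r at -0.56 ± 0.13 (adjusted p = 0.0909). The comparisons against WT share the WT arrays.

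The stimulation effect itself was compared too. Against WT, 0 of 8 members were called in Gli2A Tg (2 at an unadjusted p under 0.05; 0.011% of all genes called) and 0 of 8 in Gli2R Tg (5 at an unadjusted p under 0.05; 0% of all genes called, 1574 at an unadjusted p under 0.05). In Gli2R Tg against WT the values of all 8 members lay below 0, with a median of -0.86, against a median of -0.01 over all genes. These 8 values come from the same 12 arrays and are not independent. By sign alone, these are smaller rises for the members that rose and deeper falls for Il2rb and Il7r. The intervals of Il2ra (-1.35 to 0.01), Il7r (-0.58 to 0.20) and Lif (-2.37 to 0.32) included 0. Second probe sets of Il15ra and Lif rose nearly as much in Gli2R Tg (1.68 and 2.61) as in WT cells (1.71 and 2.65). Those of Il2ra (2.91 against 3.54), Il2rb (-1.61 against -0.70) and Il7r (-4.37 against -4.15) had larger gaps in the direction given.

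**Figure D3:**
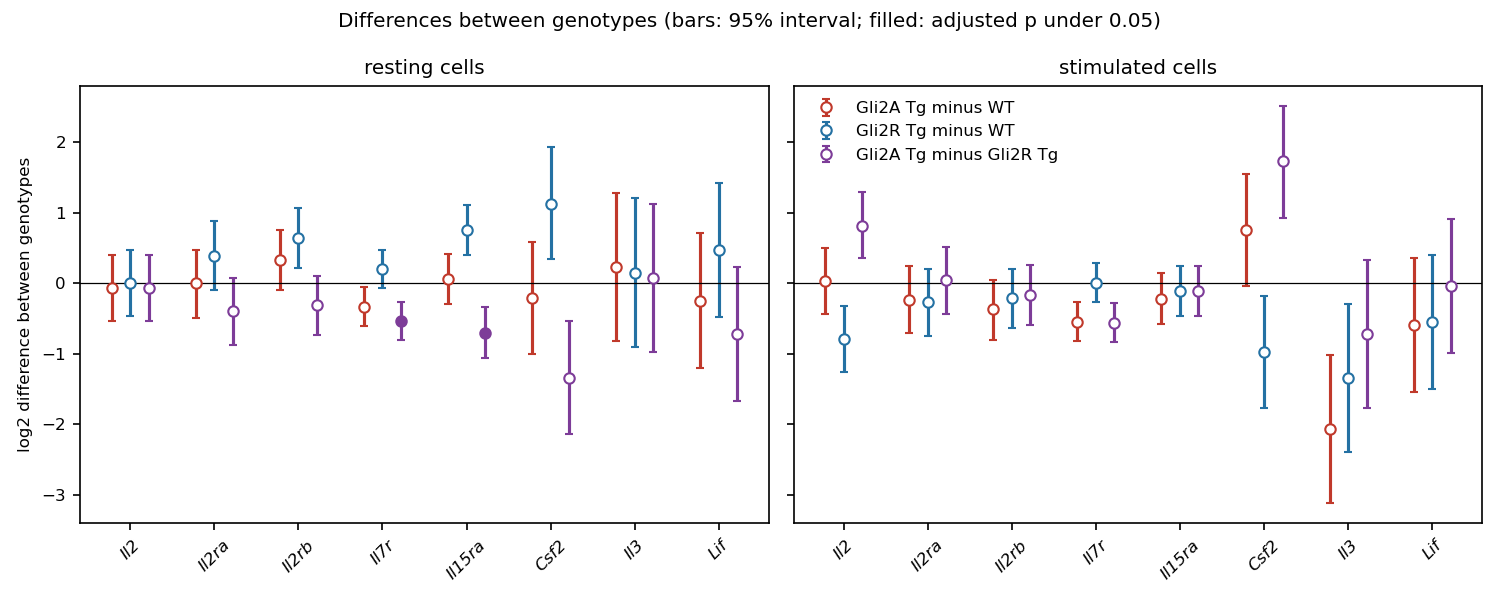
Log2 differences between genotypes (y axis) of each member in resting cells (left) and in stimulated cells (right), with 95% intervals from limma on 3 arrays per group; filled points are called at an adjusted p under 0.05. The filled points are Il7r and Il15ra in resting Gli2A Tg minus Gli2R Tg, both below 0, and the same difference for Csf2 lies below 0 at rest (-1.34) and above 0 after stimulation (1.73).

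Ranked by mean, the groups fell in different orders for different members. Il2 ran from stimulated Gli2A Tg and WT, which overlapped, through stimulated Gli2R Tg, to the 3 overlapping resting groups. Csf2 had the same top 3, with resting Gli2R Tg next and apart from both other resting groups. Il2ra, Il15ra, Il3 and Lif had stimulated WT first. Il7r and Il2rb had resting Gli2R Tg first, and all 3 stimulated groups last.

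The genes of the wider pathway were read from lists of related genes. No list was tested, and counts near the shares over all genes do not set a list apart. Those shares were 19.7% called higher and 22% lower with stimulation in WT cells. They were 20.2% and 22.8% in Gli2A Tg and 19.8% and 22.5% in Gli2R Tg cells. The list of other cytokines held 13 measured genes of this and related families, the interleukin-6 family among them. Of these, 8 rose and 1 fell in WT cells (median 1.11), 8 rose and 1 fell in Gli2A Tg (1.53), and 2 rose and 1 fell in Gli2R Tg cells (0.46). Il21, the neighbour of Il2 and a helper cytokine for B cells, rose by 4.83 ± 0.66 in WT and 5.45 in Gli2A Tg cells, and its value in Gli2R Tg cells was 1.40 (adjusted p = 0.106). Against WT, Il21 in Gli2R Tg cells differed by 2.22 at rest (adjusted p = 0.248), by -1.20 after stimulation (adjusted p = 0.625) and by -3.43 ± 0.93 in the stimulation effect (adjusted p = 0.296), none of them called. Il4, the cytokine of type 2 help, rose by 2.52 in WT and 3.80 in Gli2A Tg cells, with 0.40 (adjusted p = 0.434) in Gli2R Tg. Il4 was also called between genotypes, at 2.28 in stimulated Gli2A Tg against WT (adjusted p = 0.0262) and 3.70 against Gli2R Tg cells (adjusted p = 0.000587). The Il4 stimulation effect differed by 3.40 between Gli2A Tg and Gli2R Tg (adjusted p = 0.019), as did that of Csf2. Il15, whose product is the ligand of Il15ra, fell by 0.80 in WT cells. Osm, the neighbour of Lif, rose by 1.11 ± 0.19 in WT and 1.17 in Gli2A Tg cells, with 0.46 (adjusted p = 0.0599) in Gli2R Tg. In resting Gli2A Tg against Gli2R Tg cells, Osm (-0.93, adjusted p = 0.0179) and Ctf1 (-1.08, adjusted p = 0.0154), both of the interleukin-6 family, were lower. Ctf1 was also lower than in resting WT cells (-1.18, adjusted p = 0.0205), and its stimulation effect differed by 1.84 between Gli2A Tg and Gli2R Tg cells (adjusted p = 0.0284).

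Among 15 other receptor chains, 3 rose and 6 fell in WT (median -0.43), 1 rose and 6 fell in Gli2A Tg, and 1 rose and 5 fell in Gli2R Tg cells. Csf2rb2, a beta chain of the interleukin-3 receptor, rose by 2.40 ± 0.39 and Crlf2 by 0.74 in WT cells, and Il6ra (-2.37) and Il13ra1 (-2.02) fell. The receptor chains that bind the secreted members were looked at after their values were seen: Csf2ra (-1.67), Il3ra (-1.01) and Lifr (-1.28) fell in WT cells, and Csf2rb was at -0.43 (adjusted p = 0.11). Myeloid cells carry several of these chains, and the myeloid marker sum fell from 61300 to 93400 down to 1230 to 1850 in the same WT arrays. The part of the myeloid RNA in these falls was not tested. Between genotypes at rest, Il9r was higher in Gli2A Tg cells than in WT (1.06) and Gli2R Tg cells (1.14), and Csf2rb was higher than in Gli2R Tg cells (1.49, adjusted p = 0.00164).

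Downstream of the receptors, 3 of 8 JAK and STAT genes rose and 1 fell in WT cells (median 0.26), where 19.7% and 22% of all genes did. Jak2, the kinase of the beta chain shared by interleukin-3 and GM-CSF, rose by 2.17 ± 0.16 and Stat5a by 1.18, and Jak1, which pairs with several chains of this family, fell by 1.99. Of 9 further signalling genes 2 rose and 6 fell (median -1.14), with Ptpn11 up by 1.03 and Akt1 by 0.95, and Pik3cd down, at -2.35, and Pik3r1 at -2.23. Sos1 was higher in resting Gli2A Tg than in resting Gli2R Tg cells (0.81, adjusted p = 0.0229).

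Of 19 genes known as targets of STAT5, 13 rose and 2 fell in WT cells (median 1.99), and 13 rose and 4 fell in both Gli2A Tg (1.81) and Gli2R Tg cells (1.33). Ccr8, a chemokine receptor, rose by 4.38 ± 0.45 and Tnfrsf9, a costimulatory receptor, by 3.76 in WT cells, while Ccnd3, a cyclin (-2.16), and Bcl2, a survival gene (-0.55), fell. Between Gli2A Tg and Gli2R Tg cells limma called 0 of the 19 at rest and 0 after stimulation, where 2.4% and 0.231% of all genes were called, shares too low for these counts to set the list apart. T cell receptor signals induce several of these genes too.

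Genes of factors known to act on Il2 transcription moved both ways. Of 14 activators, 5 rose and 4 fell in WT cells (median 0.12), where 19.7% and 22% of all genes did. Within AP-1, Fosl2 rose by 4.38 ± 0.20 and Fosl1 by 2.99, whereas Jun (-3.51) and Fos (-3.22) fell. In resting Gli2A Tg against Gli2R Tg cells Fos (-2.46), Fosb (-1.31), Jun (-3.51) and Junb (-2.90) were lower in the comparison where Il2 differed by -0.06. Of 10 repressors, 4 rose and 2 fell, with Crem up by 2.90 and Egr2 by 2.52, and Tob1 down, at -1.67, and Ikzf3 at -0.72.

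Of 9 genes that regulate Il7r, 2 rose and 5 fell in WT cells (median -0.95). Gfi1, a known repressor of Il7r, rose by 1.97 ± 0.22 and Gabpa, a known activator, by 0.75, while Lef1 (-3.24) and Klf2, a factor of resting T cells (-2.66), fell. Klf2 was lower in resting Gli2A Tg than in resting Gli2R Tg cells (-1.08, adjusted p = 0.014), as was Il7r. The Il7r call was near the threshold and was lost in 21 of 31 alternatives. A link between these genes was not tested. Of 9 genes of proteins that act on cytokine messenger RNA decay, 2 rose and 3 fell in WT cells (median 0.20). Of all genes, 19.7% rose and 22% fell there. Rc3h1 rose by 0.90 and Zfp36l1 by 0.62, and Zfp36l2 (-2.01) and Zfp36 (-1.63) fell. In resting Gli2A Tg against Gli2R Tg cells Zfp36 was lower (-1.73, adjusted p = 0.0107) and Khsrp higher (0.93, adjusted p = 0.037).

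**Figure D4:**
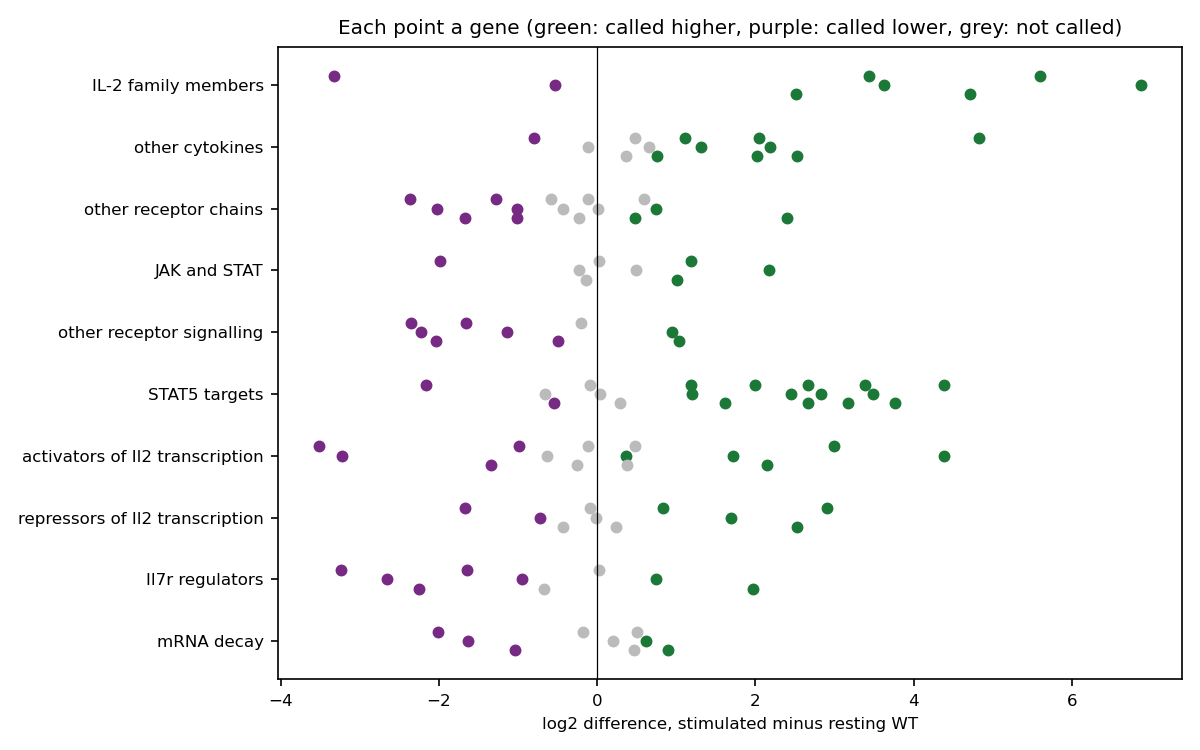
Log2 difference between stimulated and resting WT cells (x axis) for each measured gene of the members and of the 9 related gene lists (rows), each point 1 gene, green where called higher, purple where called lower and grey where not called. Il2 lies farthest to the right at 6.87, and all rows hold genes on both sides of 0.

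Genes with patterns most like each member were taken by Pearson r over the 18 arrays, all of which share the split into resting and stimulated, so most values are close to 1 and are given as a description. Il2 was most like Pgam1 (0.994), an enzyme of glycolysis, and Nt5dc3 (0.994). Il2ra was most like Zbed5 (0.993), Lif was most like Il2ra (0.992), and Il15ra was most like Fyttd1 and Slc25a32 (0.991). Il7r was most like Gimap6, a GTPase of resting lymphocytes, and Pigbos1 (0.996). Il2rb was most like Ccl5 (0.955), a chemokine of memory and cytotoxic cells, and Csf2 was most like Gfus (0.974). Il3 had the lowest values, with Sec23b at 0.903 and Armc8 at 0.849.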

How the data were processed

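RNA of 18 samples was hybridised to 18 arrays of 45101 probe sets. Per the submitters' processing notes, the affy package (version not given) was used, and the deposited table holds linear intensity values that the authors scaled to a 2% trimmed mean of 500 on each array. The file holds no detection calls.

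Intensities were transformed as log2 of the value plus 16 and quantile normalised. Probe sets with 1 symbol (34945) were kept, leaving out 932 with several, 9160 with none and 64 controls, and a gene was read from its brightest probe set. Group means of all 18 arrays were fitted with limma 3.58.1 in R 4.3.3 (lmFit, eBayes), 12 comparisons were taken, and p-values got Benjamini-Hochberg adjustment over all genes of a comparison. The fit was tested on simulated data. Intervals are 95%. The number of arrays limits the precision.

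Members and gene lists were chosen with earlier results of these data known. Named from each list were the called genes with the 2 largest rises and falls in stimulated WT cells and any gene called between genotypes or stimulation effects, plus up to 3 of the brightest markers and the 3 genes most like each member. Chromosomal neighbours were looked at after the values were seen. Promoter windows and gene order came from RefSeq, and all 13 member probe sets matched its gene numbers. Alternatives were other scalings, offsets, filters and probe set rules, other eBayes options, array weights, the compared groups alone, the replicate number as a block, sex as a covariate, and leaving out arrays.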

Additional observations from a re-analysis of the deposited data

Results flagged for a closer look

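The rise of Csf2 with stimulation differed between Gli2A Tg and Gli2R Tg cells by 3.07 (SE 0.53, adjusted p = 0.0397 in limma), a difference between groups by the test of the difference itself. It is the 1 member result of this kind that passed. No test for a single outlying sample was run within groups of 3 arrays.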

How the results depend on the processing

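Of 96 member differences, 25 were called; 21 of these stayed past the threshold under all alternatives run for them (up to 31, 18 of which leave out 1 array), and no called difference reversed. The 4 others were the Csf2 stimulation effect in Gli2A Tg against Gli2R Tg (lost in 18), Il15ra and Il7r in resting Gli2A Tg against Gli2R Tg (lost in 19 and 21) and Il2rb in stimulated against resting WT (lost in 11, and at an adjusted p that rounds to 0.05 with an offset of 1). Among the 71 not called, 8 were called under at least 1 alternative. In resting Gli2A Tg against Gli2R Tg, the count of 2 members became 0 with median centring, an offset of 1, the brightest probe sets adjusted over all probe sets (where the second Il7r probe set was called), the compared groups alone or both Gli2A Tg arrays that stood apart left out, and 1 with probe sets averaged per gene or sex as a covariate; it became 3, with Csf2, with genes above the median level or the trend and robust options, and ran from 0 to 2 without single arrays. The count of 1 for the Gli2A Tg against Gli2R Tg stimulation effect became 0 with an offset of 1, the compared groups alone or both arrays left out, and ran from 0 to 1 without single arrays. A count of 0 became 1 with an offset of 64 or with genes above the median level, and 2 with the trend and robust options, in stimulated Gli2A Tg against WT; 2 with each of these and with array weights in stimulated Gli2A Tg against Gli2R Tg; and 1 with genes above the median level or array weights in resting Gli2R Tg against WT. Without single arrays, the counts of stimulated Gli2A Tg against WT and against Gli2R Tg ran from 0 to 1. The causes were not tested. Median centring moved the median of all genes by 0.13 in stimulated against resting WT cells and by -0.12 in the Gli2R Tg against WT stimulation effect, and member directions held. Deviations from the group mean had a median correlation of 0.0197 in same-numbered arrays of different groups, against -0.00927 in differently numbered ones. Of 45 same-numbered pairs 2 correlated over 0.1, and 12 of 18 arrays correlated best with their own number. These values do not settle whether the replicate number pairs the arrays, and the reported fit has no term for it. With the replicate block, 7, 7 and 7 members were called for stimulation in WT (Il2rb was lost, adjusted p = 0.0566), Gli2A Tg and Gli2R Tg. That fit called 2 in resting Gli2A Tg against Gli2R Tg and 1 in the Gli2A Tg against Gli2R Tg stimulation effect. Il3 has no value with genes above the median level, since its mean lies below it. Dim genes, Il3 and resting Csf2 and Lif, are the least well measured.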

Other observations

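A probe set annotated to both Ntan1 and Il2 was left out of the members. Resting levels were 11.90 ± 0.06 (SD, n = 3) for WT, 11.85 ± 0.27 for Gli2A Tg and 12.22 ± 0.12 for Gli2R Tg. Stimulated levels were 10.99 ± 0.17 for WT, 10.96 ± 0.37 for Gli2A Tg and 10.78 ± 0.17 for Gli2R Tg, so the means were lower in stimulated cells, whereas the probe set of Il2 alone had higher ones.

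Among the other neighbours of the members, P4ha2, next to Csf2, rose by 1.96 in stimulated Gli2A Tg cells (adjusted p = 0.00361 in limma) and had values of 0.36 in WT (adjusted p = 0.604) and 0.77 in Gli2R Tg cells (adjusted p = 0.227). Acsl6, next to Il3, fell in WT (-1.75), Gli2A Tg (-2.72) and Gli2R Tg cells (-2.01). Rbm17, next to Il2ra, had a value of -0.07 (adjusted p = 0.731) in WT cells. Adad1, next to Il2, rose by 1.06 in Gli2A Tg cells (adjusted p = 0.0452) and had values of -0.02 in WT (adjusted p = 0.973) and 0.49 in Gli2R Tg cells (adjusted p = 0.369). A call in 1 genotype and none in another is no test of a difference between them. The difference in stimulation effect is not given for these neighbours, and for Gli2A Tg against WT it was called for 0.011% of all genes.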
